A study of Mus musculus with 10 samples.

Results

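The ventricular myosin genes and the Mhrt transcript were followed in cardiomyocytes isolated from mice on day 4 after myocardial infarction (MI). The 7 genes were chosen by name, as the myosin heavy chains of the ventricle and their relative (Myh6, Myh7, Myh7b), the ventricular light chains (Myl2, Myl3), the cardiac light chain kinase (Mylk3) and the RNA made between the heavy chain genes (Mhrt). All 7 are among the 51789 genes of the table, and all 7 passed the filter on low counts that 15232 genes passed. The libraries came from 5 non-transgenic littermate control mice after MI (NLC-MI) and from 5 littermates with cardiomyocyte-specific transgenic expression of GRK5 after MI (TgGRK5-MI), with 1 library per mouse. GRK5 is a kinase of G protein-coupled receptors. The comparison asks how extra GRK5 in the cardiomyocyte alters its transcripts after ischemic injury. All 10 mice had the infarction, and libraries of sham-operated mice were not analysed here. The study used young adult mice of both sexes. The promoter of the transgene and the age and sex of the mouse behind each library are not given in the sources used here.

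Myosin heavy chains form the motor heads and the tail of the thick filament. The adult mouse ventricle uses mainly the fast alpha chain, encoded by Myh6, while the slow beta chain, encoded by Myh7, dominates in the fetal ventricle and returns under hemodynamic load and in heart failure. Each chain carries an essential light chain, which is Myl3 in the ventricle, and a regulatory light chain, which is Myl2 and is phosphorylated by the kinase Mylk3. Mhrt is a long non-coding RNA of the heart that starts between Myh6 and Myh7 and is read on the strand opposite to both. It is known for binding the chromatin remodeler Brg1, encoded by Smarca4, and for falling with pathological stress. Introns of the heavy chain genes also hold microRNAs.

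On GRCm38, with the GENCODE M21 annotation, Myh6 (ENSMUSG00000040752) lay on the minus strand at chr14:54941921-54966927, and Myh7 (ENSMUSG00000053093) lay upstream of it on the same strand at chr14:54970684-54994626. Mhrt (ENSMUSG00000097652) lay on the plus strand at chr14:54968678-54974349, and its start was 1750 bases from that of Myh6. The annotation gave Mhrt 2 transcripts, of 828 and 447 bases, and classed it as antisense. Of the exon bases of Mhrt, 484 bases (39.9%) were also exon bases of Myh7 on the other strand, and 730 bases lay outside the exons of Myh7. The other members were Myh7b (ENSMUSG00000074652) at chr2:155611212-155634307 on the plus strand, Myl2 (ENSMUSG00000013936) at chr5:122100951-122113472 on the plus strand, Myl3 (ENSMUSG00000059741) at chr9:110741861-110769798 on the plus strand and Mylk3 (ENSMUSG00000031698) at chr8:85324303-85386345 on the minus strand.

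**Figure D1:**
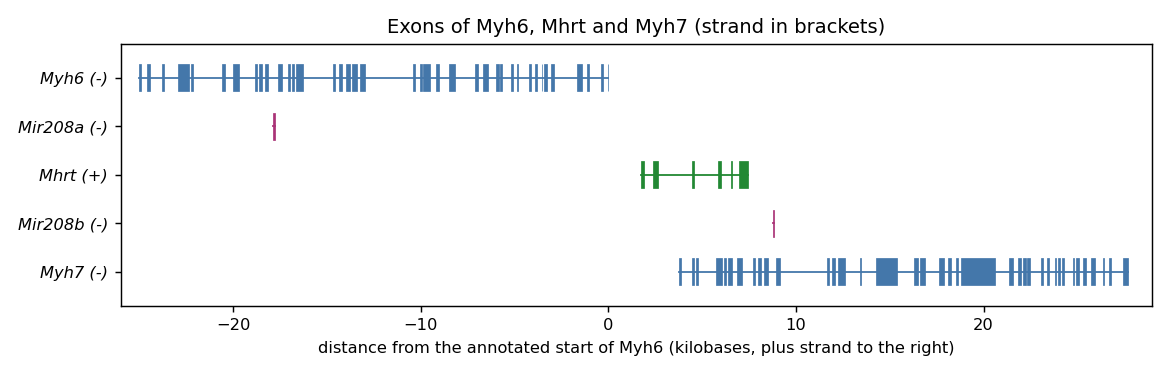
Exons (boxes) and introns (lines) of Myh6, Mhrt, Myh7 and the microRNA genes inside them, drawn to scale by distance in kilobases from the annotated start of Myh6, with the strand of each gene in brackets. Mhrt starts 1750 bases from Myh6 and runs under the 3' part of Myh7, where 484 of its exon bases are exon bases of Myh7 as well.

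The starts of the 3 neighbouring genes are shown because Mhrt is read from the stretch between Myh6 and Myh7, in the direction away from the start of Myh6. The windows come from RefSeq (GRCm38.p6), run from 250 bases before to 50 bases after a RefSeq start, and are written on the strand of the gene. The RefSeq starts used for Myh6 and Mhrt differ from their GENCODE gene starts, at 54966927 and 54968678. The Myh6 window lies wholly inside the GENCODE gene. Capitals mark the MCAT element bound by TEAD factors, searched as CATTCC on both strands, and the letters TATAAA, searched on both strands as well. The windows were Myh6 on the minus strand at chr14:54966558-54966857, Mhrt on the plus strand at chr14:54968537-54968836 and Myh7 on the minus strand at chr14:54994577-54994876.
Myh6: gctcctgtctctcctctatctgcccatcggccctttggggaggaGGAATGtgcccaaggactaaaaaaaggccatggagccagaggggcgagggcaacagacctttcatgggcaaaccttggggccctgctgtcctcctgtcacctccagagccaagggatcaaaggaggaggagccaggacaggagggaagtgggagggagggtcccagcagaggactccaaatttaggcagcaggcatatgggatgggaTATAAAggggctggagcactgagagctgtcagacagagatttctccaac
Mhrt: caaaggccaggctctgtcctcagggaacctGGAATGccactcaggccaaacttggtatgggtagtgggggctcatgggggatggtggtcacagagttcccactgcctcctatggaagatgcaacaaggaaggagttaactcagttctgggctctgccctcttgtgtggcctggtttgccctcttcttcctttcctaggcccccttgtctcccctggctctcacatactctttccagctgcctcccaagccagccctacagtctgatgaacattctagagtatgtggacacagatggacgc
Myh7: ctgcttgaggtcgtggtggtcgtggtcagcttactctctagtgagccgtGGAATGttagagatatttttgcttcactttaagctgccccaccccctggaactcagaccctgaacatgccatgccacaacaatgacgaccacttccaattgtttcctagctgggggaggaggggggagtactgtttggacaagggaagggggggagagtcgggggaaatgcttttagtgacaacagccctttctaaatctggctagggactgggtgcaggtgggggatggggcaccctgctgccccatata
Each of the 3 windows held the MCAT letters, on the strand opposite to the gene. The window of a second RefSeq start of Myh7, at chr14:54994500-54994799 on the minus strand, did not hold them. The letters were in 14.7% of the 32851 windows of all genes. The TATAAA letters stood in the Myh6 window alone of the 3, and in 13.6% of all windows. In the Myh6 window they began at position 2 from the RefSeq start, and so not before it. A match of letters is a description of the sequence and was not tested as a binding site.

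The microRNAs inside the heavy chain genes are shown because they carry related seeds (bases 2 to 8, in capitals). The mature sequences are from RefSeq on GRCm38.p6. The miR-208a-3p sequence lay in an intron of Myh6 (chr14:54949072-54949093, minus strand), the miR-208b-3p sequence in an intron of Myh7 (chr14:54975710-54975731, minus strand) and the miR-499-5p sequence in an intron of Myh7b (chr2:155622893-155622913, plus strand).
miR-208a-3p: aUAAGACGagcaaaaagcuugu
miR-208b-3p: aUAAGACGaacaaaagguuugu
miR-499-5p: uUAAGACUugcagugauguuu
The microRNAs of Myh6 and Myh7 share the seed UAAGACG, which 2 of the 1738 mature sequences in the table carried, and that of Myh7b has the seed UAAGACU. The table of counts held almost nothing on their genes. Mir208a had 1 count in NLC-MI replicate 5, 2 counts in TgGRK5-MI replicate 3 and 0 in the other 8 libraries, and Mir208b and Mir499 had 0 counts in all 10. A count of 0 allows up to 3 counts, or 0.121 to 0.393 CPM (counts scaled to library size) at the depths of these libraries. The libraries were made with a kit for long RNA, so these values say nothing of the mature microRNAs.

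The coding sequences of Myh6 and Myh7 were 91.7% identical over 5802 aligned bases. Their longest identical run, 245 bases, is shown because a read that falls inside it cannot be assigned to either gene by its sequence. It covers bases 4246 to 4490 of the Myh6 coding sequence and bases 4240 to 4484 of that of Myh7.
Shared run: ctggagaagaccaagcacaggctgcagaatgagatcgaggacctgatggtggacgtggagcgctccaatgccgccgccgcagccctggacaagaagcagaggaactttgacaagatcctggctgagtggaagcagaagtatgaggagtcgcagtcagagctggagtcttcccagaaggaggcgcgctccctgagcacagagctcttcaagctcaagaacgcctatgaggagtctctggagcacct
Of all 50-base words in the longest Myh6 transcript, 22.6% were also in Myh7. Of those in Mhrt, 38.8% were in Myh7 as reverse complements. The counts of Myh6, Myh7 and Mhrt are therefore uncertain where reads fall on shared stretches. For Myh7b, Myl3 and Mylk3 no 50-base word was shared with another gene, and for Myl2 2.14% were.

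The libraries held 7968779 (NLC-MI replicate 3) to 23381527 counts (NLC-MI replicate 2), and 2.61% to 6.43% of all counts fell on the 7 genes. Grk5 lay between 46.5 and 73.1 CPM in NLC-MI, and between 552 and 1700 CPM in TgGRK5-MI, so each library bore out its label. All 6 cardiomyocyte markers were measured in each group, with a summed level of 25511 to 52237 CPM in NLC-MI, and 26482 to 54335 CPM in TgGRK5-MI. The libraries also held RNA of other cells. The 7 fibroblast markers summed to between 4027 and 24086 CPM in NLC-MI, and to between 4194 and 24745 CPM in TgGRK5-MI. NLC-MI replicate 3 had 49 counts of Myh1, 38 of Myh2 and 26 of Myh4, the myosins of skeletal muscle, against at most 6 counts of any of them in the other libraries. Of the other genes of the skeletal muscle list, Tnnt3 was at 13.7 CPM there against 19.3 and 18.5 CPM in NLC-MI replicates 1 and 2, and the sum of the list, 1178 CPM, was the lowest in NLC-MI. In bulk RNA, fewer cells of a type and less RNA per cell cannot be told apart.

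Counted per kilobase of exon on the CPM scale, so that genes can be compared, the level in NLC-MI was highest for Myh6 (4400 ± 1980, SD, n = 5). It was followed by Myl2 (3176 ± 1811), Myl3 (2098 ± 1019), Mylk3 (132 ± 53.6), Myh7 (75.9 ± 48.8), Mhrt (29.5 ± 12.6) and Myh7b (7.84 ± 6.84). In TgGRK5-MI the same scale gave Myl2 4048 ± 1364, Myh6 3149 ± 1009, Myl3 1875 ± 566, Myh7 127 ± 11.3, Mylk3 118 ± 30.0, Mhrt 75.4 ± 16.5 and Myh7b 6.91 ± 2.23. The order was clear between some neighbours. Myl2 lay above Myl3, Myl3 above Mylk3, Myh7 above Mhrt and Mhrt above Myh7b in 10 of 10 libraries. Myh6 and Myl2 were not separated, since Myh6 was the higher in 6 of 10 libraries and in 0 of 10 when the longest transcript served as the length. Mylk3 and Myh7 were not separated either, with Mylk3 the higher in 6 of 10 libraries.

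**Figure D2:**
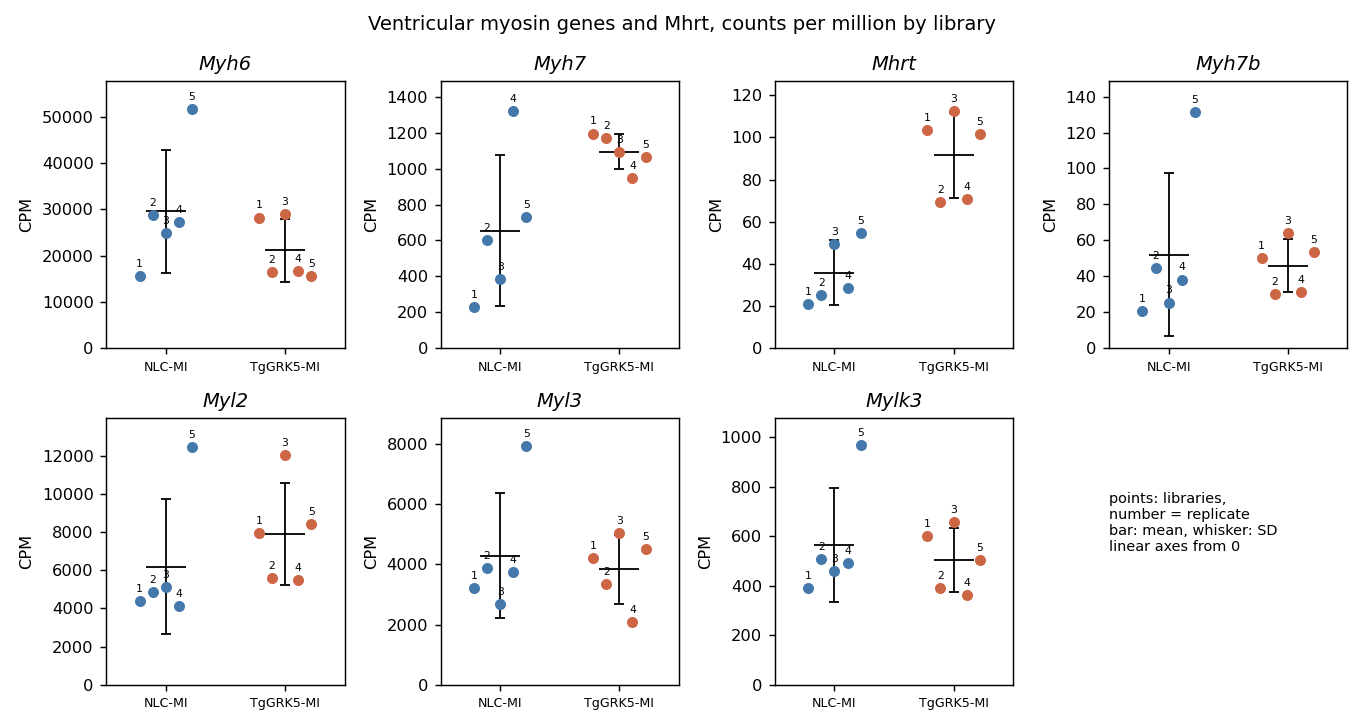
Levels in CPM of the 7 genes in each library of NLC-MI (blue) and TgGRK5-MI (orange), on linear axes from 0, with the replicate number at each point, the mean as a bar and the SD as a whisker. Only the Mhrt panel has groups that do not overlap, and NLC-MI replicate 5 lies above all other libraries for Myh6, Myh7b, Myl2, Myl3 and Mylk3.

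Mhrt was the member with the clearest difference. It was at 20.7, 25.2, 49.6, 28.7 and 54.8 CPM in NLC-MI replicates 1 to 5 and at 103, 69.2, 113, 70.9 and 102 CPM in TgGRK5-MI replicates 1 to 5. The lowest TgGRK5-MI library lay above the highest NLC-MI library, so the groups did not overlap. Across all genes tested, 0.584% had TgGRK5-MI values that all lay above the NLC-MI values. The means were 35.8 ± 15.3 CPM in NLC-MI against 91.5 ± 20.1 CPM in TgGRK5-MI, with the SD over 5 libraries each. The log2 fold change was 1.36 (standard error 0.28), or 2.56-fold. With edgeR's quasi-likelihood test the unadjusted p was 0.000411 and the adjusted p over all genes 0.261, which misses the threshold of 0.10. Permuting the group labels of the libraries in the exact two-sided test gave p = 0.00794, the smallest it can give.

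The call for Mhrt depended on the method. At an adjusted p under 0.10, edgeR called 0 of the 7 members, against 0.0788% of all genes tested (12 genes). At an unadjusted p under 0.05 it gave 1 member higher, Mhrt, against 1.77% of all genes, and 0 lower, against 2.08%. DESeq2 called Mhrt alone of the 7 (log2 fold change 1.35, adjusted p = 0.00416), against 0.397% of the genes for which it gave an adjusted p. The limma-voom fit with sample quality weights also called Mhrt alone (log2 fold change 1.83, adjusted p = 0.00264), against 0.328% of all genes tested. In edgeR, scaling by library size alone gave an adjusted p of 0.0776, and scaling to the 6 cardiomyocyte markers, an alternative added after the data were seen, gave 0.0352. When single libraries were left out the edgeR log2 fold change stayed between 1.19 and 1.56 and the adjusted p between 0.146 and 0.692. Without NLC-MI replicate 3, the library with counts of skeletal heavy chains, it was 1.50 (edgeR adjusted p = 0.236).

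Within the groups, Mhrt tended to be higher in the libraries with lower fibroblast marker sums, but not in all. The lowest NLC-MI values of Mhrt, in replicates 1 and 2, were in the libraries with fibroblast marker sums of 23558 and 24086 CPM, and the lowest TgGRK5-MI value, in replicate 2, was in the library at 24745 CPM. The highest NLC-MI values of Mhrt, 54.8 CPM in replicate 5 and 49.6 CPM in replicate 3, were in libraries at 4027 and 5813 CPM. These were the lowest sums of that group. The highest TgGRK5-MI value, 113 CPM in replicate 3, was in the library at 4194 CPM. NLC-MI replicate 4 (7467 CPM) had 28.7 CPM. Out of this order, TgGRK5-MI replicate 1, with the next highest sum of its group (14144 CPM), had Mhrt at 103 CPM. TgGRK5-MI replicate 4 (9746 CPM) had 70.9 CPM. Of the 7 fibroblast markers 3 had a positive and 4 a negative log2 fold change, 0 had an unadjusted p under 0.05 in edgeR, and no marker was at 0. The same count was 0 for the smooth muscle (4 tested of 4), endothelial (5 of 5), macrophage (6 of 6), neutrophil (3 of 5), lymphocyte (1 of 4), red cell (2 of 3) and skeletal muscle markers (2 of 6). It was 1 for the atrial markers (4 of 4), through Myl7, which was lower in TgGRK5-MI (edgeR unadjusted p = 0.0406). Scaled to the cardiomyocyte markers, the log2 fold change of Mhrt was 1.44. The part of the other cells in the difference was not tested further. Within TgGRK5-MI, the libraries with Grk5 at 1509, 1700 and 1428 CPM had Mhrt at 103, 113 and 102 CPM. Those with Grk5 at 922 and 552 CPM had Mhrt at 69.2 and 70.9 CPM. Myl2 was at 7930, 12016 and 8430 CPM in the former libraries and at 5588 and 5505 CPM in the latter. Myl3, Myh7b and Mylk3 split the same way, and Myh6 and Myh7 did not. A relation with the level of Grk5 was not tested.

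Since the strand setting of the counting is not stated, and the kit does not mark strand, reads on the bases that Mhrt shares with Myh7 cannot be told apart. The size of this was computed. If the counts of Myh7 were spread evenly over Myh7-201, a transcript of 6135 bases, the 463 bases of it that lie opposite Mhrt exons would hold 396, 1120, 222, 2129 and 841 counts in NLC-MI replicates 1 to 5, where Mhrt had 470, 623, 379, 611 and 837 counts. In TgGRK5-MI they would hold 2018, 2022, 950, 666 and 1493 counts, where Mhrt had 2309, 1586, 1297, 658 and 1892 counts. The computed number was 0.587 to 3.48 times the Mhrt count and exceeded it in 5 of 10 libraries. The computed and counted numbers differed most in NLC-MI replicate 4 (3.48 times) and then in replicates 2 (1.80 times) and 3 (0.587 times). Replicate 4 had 28206 counts of Myh7, the most of all libraries, and 611 counts of Mhrt. Gm29015, another antisense gene in Myh7, shares 142 of its 207 exon bases with Myh7 and had 0 to 5 counts per library. How many of the Mhrt counts came from Myh7 was not tested, since the positions of reads were not used here.

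**Figure D3:**
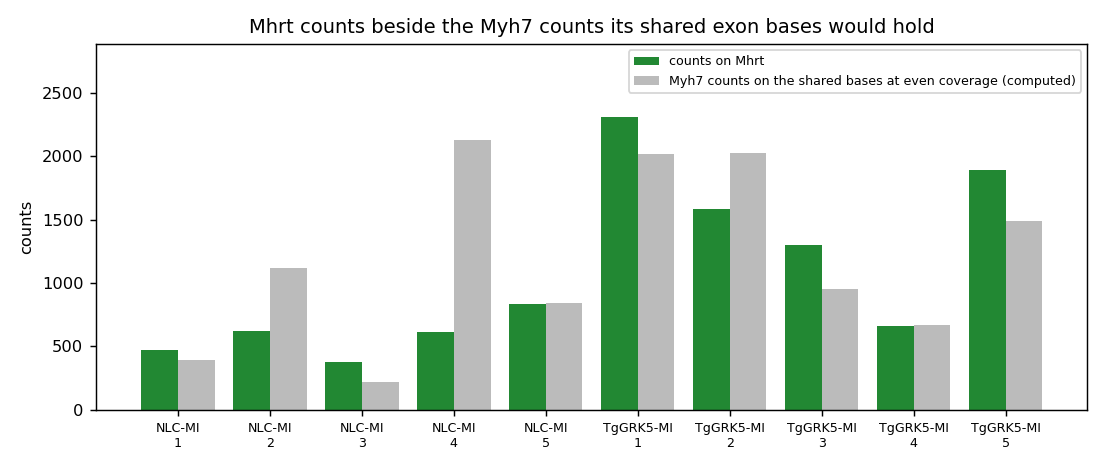
Counts on Mhrt (green) in each library beside the counts of Myh7 that the 463 shared bases would hold if Myh7 reads were evenly spread (grey, computed). The computed count exceeds the Mhrt count most in NLC-MI replicates 2 and 4, at 1120 against 623 and 2129 against 611.

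Myh7, the gene of the slow beta chain, was at 231, 601, 386, 1323 and 729 CPM in NLC-MI replicates 1 to 5 and at 1196, 1169, 1094, 950 and 1062 CPM in TgGRK5-MI replicates 1 to 5. The TgGRK5-MI libraries lay close together, with an SD of 8.86% of their mean against 64.3% in NLC-MI. The groups overlapped through NLC-MI replicate 4, the highest of all 10 libraries, and the other 4 control libraries lay below every TgGRK5-MI library. The means were 654 ± 421 CPM and 1094 ± 97.0 CPM (SD, n = 5 each). The log2 fold change came to 0.74 (standard error 0.38, edgeR unadjusted p = 0.0728, adjusted p = 1.00), and the exact permutation test gave p = 0.0476. Without NLC-MI replicate 4 the log2 fold change was 1.17 (edgeR unadjusted p = 0.00337, adjusted p = 0.823), the highest with a library left out. It was 0.60 without NLC-MI replicate 3 and lowest, at 0.51, without NLC-MI replicate 1.

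Myh6, the gene of the fast alpha chain, was at 15542, 28758, 24860, 27228 and 51582 CPM in NLC-MI, and at 28221, 16382, 28981, 16648 and 15667 CPM in TgGRK5-MI. All 5 TgGRK5-MI libraries lay within the range of NLC-MI, whose upper end was set by replicate 5. All 5 lay below the NLC-MI mean of 29594 ± 13319 CPM (SD, n = 5), which NLC-MI replicate 5 also raises. TgGRK5-MI replicates 1 and 3 lay above the NLC-MI median of 27228 CPM. The log2 fold change of -0.48 was within its standard error of 0.58 (edgeR adjusted p = 1.00, exact permutation p = 0.349). Without NLC-MI replicate 5 it was -0.19, and without each of the other libraries it lay between -0.67 and that value.

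Myh7b encodes a slow-type heavy chain whose muscle transcript is made mostly without its protein in the mammalian heart. It was at 20.7, 44.4, 25.4, 38.2 and 131 CPM in NLC-MI, and at 50.3, 30.2, 64.1, 31.1 and 53.6 CPM in TgGRK5-MI. Apart from NLC-MI replicate 5 the control libraries lay at 20.7 to 44.4 CPM. TgGRK5-MI replicates 2 and 4 were within that range, and TgGRK5-MI replicates 1, 3 and 5 were above it. The log2 fold change came to -0.18 (standard error 0.45, edgeR adjusted p = 1.00) and became 0.50 (adjusted p = 0.966) without NLC-MI replicate 5. Leaving out the other libraries gave values down to -0.42 (without NLC-MI replicate 1).

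NLC-MI replicate 5 was the highest of all libraries for both light chains and for the kinase. Myl2, the regulatory light chain, was at 4395, 4848, 5148, 4106 and 12468 CPM in NLC-MI, and at 7930, 5588, 12016, 5505 and 8430 CPM in TgGRK5-MI, so that 4 of the 5 control libraries lay below every TgGRK5-MI library. It had a log2 fold change of 0.35 with a standard error of 0.43 (edgeR adjusted p = 1.00) and 0.76 without NLC-MI replicate 5 (adjusted p = 0.943). It was 0.14 without TgGRK5-MI replicate 3, 0.22 without NLC-MI replicate 1 and 0.23 without NLC-MI replicate 4. Myl3, the essential light chain, was at 2699 to 7922 CPM (median 3731) in NLC-MI and at 2072 to 5028 CPM (median 4201) in TgGRK5-MI. It had a log2 fold change of -0.16 with a standard error of 0.38 (edgeR adjusted p = 1.00). Mylk3, the kinase of Myl2, was at 391, 506, 461, 493 and 966 CPM in NLC-MI, and at 602, 391, 659, 363 and 503 CPM in TgGRK5-MI. It had a log2 fold change of -0.16 with a standard error of 0.27 (edgeR adjusted p = 1.00). For Myl3 and Mylk3 the sign turned without NLC-MI replicate 5, to 0.17 and 0.12, and the lowest values with a library left out were -0.29 for both (without NLC-MI replicate 3 for Myl3 and without NLC-MI replicate 1 for Mylk3).

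**Figure D4:**
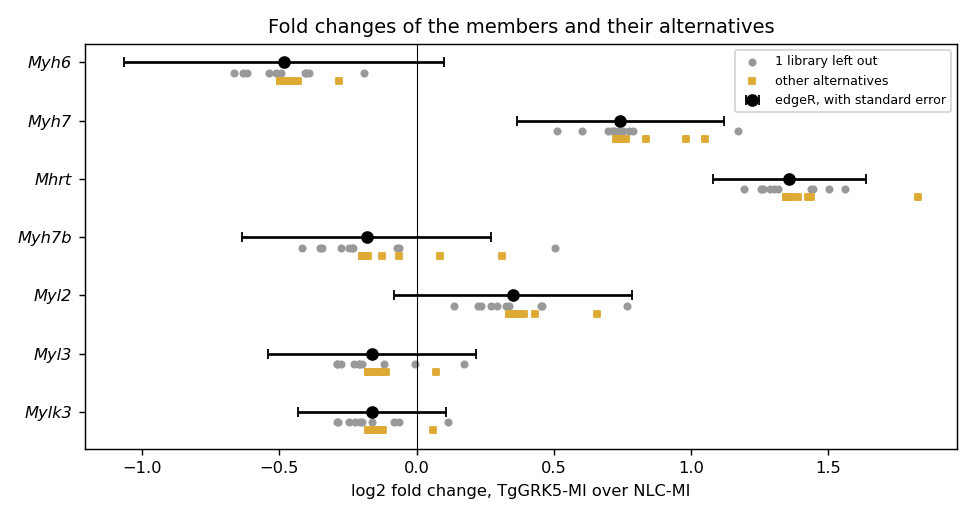
Log2 fold changes (TgGRK5-MI over NLC-MI) of the 7 genes from edgeR with their standard error (black), with 1 library left out (grey) and under the other alternatives (yellow squares). Mhrt stays between 1.19 and 1.83 and Myh7 above 0, Myh6 stays below 0, and the points of Myh7b, Myl3 and Mylk3 lie on both sides of 0.

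Ratios between members within a library do not depend on how its depth is scaled and were formed from counts per kilobase of exon. Of the 6 ratios, 4 differed between the groups in the exact two-sided permutation test of mean log2 ratios, Myh7 over Myh6, Mhrt over Myh6, Myl2 over Myl3 and Mylk3 over Myl2. These are not separate results, since Myh7 over Myh6 and Mhrt over Myh6 share Myh6, and the other ratios named share Myl2. How often ratios of other genes would differ was not tested. The members of the ratios were chosen with earlier results of these data known, so the p-values are not independent of that choice.

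The isoform ratio of Myh7 to Myh6 was 0.0116, 0.0163, 0.0121, 0.0379 and 0.0110 in NLC-MI replicates 1 to 5 and 0.0331, 0.0557, 0.0295, 0.0446 and 0.0529 in TgGRK5-MI replicates 1 to 5. NLC-MI replicate 4 lay among the TgGRK5-MI libraries, and the other 4 control libraries lay below all of them. As a share of both chains, Myh7 made up 1.74% ± 1.09 in NLC-MI and 4.13% ± 1.07 in TgGRK5-MI (SD, n = 5 each), and Myh6 was the main chain in all 10 libraries. The mean log2 ratio was higher by 1.41, or 2.66-fold (exact permutation p = 0.0238, 0.0476 adjusted over the 6 ratios by the Benjamini-Hochberg method). Without NLC-MI replicate 4 the difference was 1.73.

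The ratio of Mhrt to Myh6 was 0.00738, 0.00486, 0.0111, 0.00583 and 0.00588 in NLC-MI and 0.0203, 0.0234, 0.0216, 0.0236 and 0.0359 in TgGRK5-MI. The groups did not overlap, and the lowest TgGRK5-MI library stood well above the highest control, which was NLC-MI replicate 3. The difference of mean log2 ratios was 1.86, or 3.64-fold (exact permutation p = 0.00794, 0.0238 adjusted over the 6 ratios). It stayed between 1.72 and 2.04 when single libraries were left out. The ratio of Mhrt to Myh7, in contrast, overlapped fully. It ran from 0.154 (NLC-MI replicate 4) to 0.912 (NLC-MI replicate 3) in NLC-MI and from 0.420 to 0.731 in TgGRK5-MI, and the difference of 0.45 on the log2 scale was within the spread of the libraries (exact permutation p = 0.405). It was 0.082 without NLC-MI replicate 4 and 0.72 without NLC-MI replicate 3.

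The ratio of Mylk3 to Myl2, the kinase over its substrate, was 0.0404, 0.0476, 0.0407, 0.0547 and 0.0353 in NLC-MI and 0.0346, 0.0319, 0.0250, 0.0300 and 0.0272 in TgGRK5-MI. It was lower in each TgGRK5-MI library than in any control library, and the nearest values of the groups were 0.0353 and 0.0346. The difference of mean log2 ratios was -0.55, or 0.683-fold (exact permutation p = 0.00794, 0.0238 adjusted over the 6 ratios). NLC-MI replicate 5, the highest library in the levels of both genes, was the control library nearest to TgGRK5-MI in this ratio, and without it the difference was -0.62. The ratio of regulatory to essential light chain, Myl2 to Myl3, was 1.43, 1.31, 2.00, 1.15 and 1.65 in NLC-MI and 1.98, 1.75, 2.50, 2.78 and 1.96 in TgGRK5-MI. NLC-MI replicate 3 overlapped with TgGRK5-MI, and the difference was 0.55 (exact permutation p = 0.0317, 0.0476 adjusted over the 6 ratios). This call was lost without any of 6 libraries, NLC-MI replicates 1, 2, 4 and 5 and TgGRK5-MI replicates 3 and 4, with an exact permutation p of 0.0635 each. The ratio of Myh7b to Myh7 ran from 0.0375 to 0.234 in NLC-MI and from 0.0335 to 0.0762 in TgGRK5-MI (difference -0.89, exact permutation p = 0.0952). Without NLC-MI replicate 4 it was -1.23 (exact permutation p = 0.0159), and without NLC-MI replicate 5 it was -0.57.

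**Figure D5:**
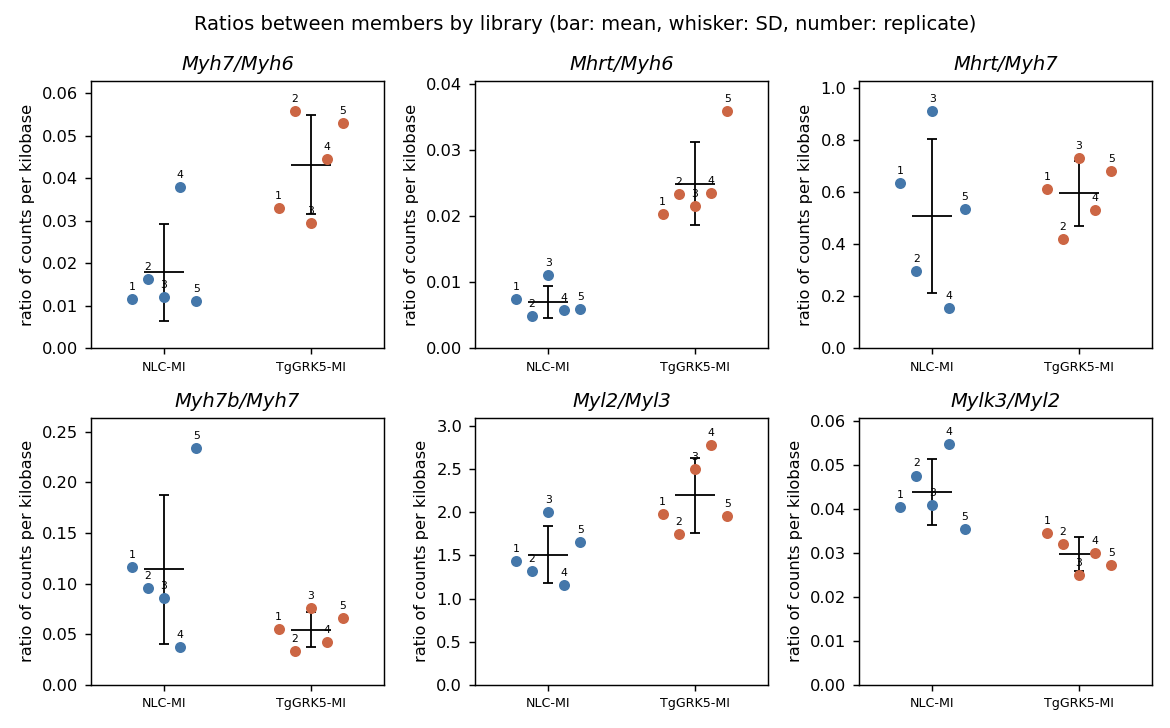
The 6 ratios of counts per kilobase in each library of NLC-MI (blue) and TgGRK5-MI (orange), on linear axes from 0, with the replicate number, the mean (bar) and the SD (whisker). The groups do not overlap for Mhrt over Myh6 and for Mylk3 over Myl2, and NLC-MI replicate 4 is the control library within the TgGRK5-MI range for Myh7 over Myh6.

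Across the 10 libraries, the levels of the members were correlated to different degrees. The correlations of log2 CPM, given as a description since all genes share the depth and the cell makeup of a library, were 0.93 between Myh7b and Mylk3, 0.91 between Myl3 and Mylk3, 0.89 between Myh6 and Mylk3 and 0.88 between Myh7b and Myl3. Without NLC-MI replicate 5 these were 0.83, 0.82, 0.76 and 0.75. Myh6 had 0.50 with Myl2 and 0.70 with Myl3, and 0.18 and 0.41 without that library. Mhrt had its highest values with Myl2 (0.71) and Myh7 (0.62), which were 0.86 and 0.62 without it. Of the 3 relations tested among the neighbours on chromosome 14, that of Mhrt with Myh7 had a Pearson's r of 0.62 (permutation p = 0.0494, 0.148 adjusted over the 3 relations) and a Spearman's rho of 0.54 (permutation p = 0.114, 0.343 adjusted). Without the libraries farthest from the median of Mhrt, NLC-MI replicates 1 and 2, r was 0.21, and with the group means removed it was 0.22, so the pooled value rests on those libraries and on the difference between the groups. Mhrt with Myh6 had an r of -0.01 (permutation p = 0.989) and a rho of 0.21 (permutation p = 0.562), and Myh7 with Myh6 an r of 0.12 (permutation p = 0.722) and a rho of 0.18 (permutation p = 0.634). With the group means removed, r was 0.71 for Mhrt with Myh6 and 0.54 for Myh7 with Myh6.

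The genes whose log2 CPM was most like that of a member were picked from 11397 genes with a mean of at least 5 CPM, by Pearson's r over the 10 libraries. For Mhrt they included Tmem116 (r of 0.97) and Slc16a7, which encodes a monocarboxylate transporter (0.94). For Myh7 they were Stk35 (0.92), Vps39 (0.92) and Stn1 (0.89), and for Myh7b they were Ttc12 (0.96), Trap1 (0.96) and Me3 (0.95). These are the highest of 11397 values over only 10 libraries and are given as a description. Tmem116 and Slc16a7 had log2 fold changes of 1.18 and 1.30 themselves, so their r also holds the difference between the groups.

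The other genes of the myosin system were read from 6 lists of 66 genes, of which 57 genes were tested. At an adjusted p under 0.10 none of the 57 was called by edgeR, and DESeq2 and limma-voom called 0 as well. At an unadjusted p under 0.05 in edgeR, 0 were higher, against 1.77% of all genes tested. At that threshold 3 were lower (Mybphl, Smarca4 and Myl7), against 2.08% of all genes tested. The median log2 fold change of the 57 was -0.17, against 0.00 for all genes tested. A negative value was found for 44 of the 57, against 7586 of all 15232 genes tested.

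Of the 11 other heavy chains 4 were tested, all of non-muscle or smooth muscle myosins, and none had an unadjusted p under 0.05. The most abundant per kilobase were Myh9, a non-muscle heavy chain, at 612 ± 244 CPM in NLC-MI against 522 ± 144 CPM in TgGRK5-MI (SD, n = 5 each, log2 fold change -0.23, standard error 0.31), and Myh14, another non-muscle chain (-0.55, standard error 0.31). Among the 10 other light chains 9 were tested. Myl7, the regulatory light chain of the atria, was at 20.7, 54.7, 12.8, 12.4 and 64.0 CPM in NLC-MI, and at 24.2, 14.3, 9.04, 3.66 and 16.8 CPM in TgGRK5-MI. The groups overlapped, and the log2 fold change came to -1.27 (standard error 0.55, edgeR unadjusted p = 0.0406, adjusted p = 1.00, exact permutation p = 0.143). Myl4, the essential light chain of the atria, belongs beside it and was at 47.0 ± 25.9 and 26.4 ± 18.1 CPM (log2 fold change -0.83, standard error 0.50). All 4 atrial markers had negative values, and their sum was 1178 to 3767 CPM in NLC-MI, and 992 to 3491 CPM in TgGRK5-MI. The sum is mostly Nppa, at 1020 to 3634 CPM and 968 to 3414 CPM, whose log2 fold change was -0.04. Nppa is also on the list of the fetal program, so the sum is no measure of atrial tissue alone. The abundant light chains Myl12a and Myl6, which serve non-muscle and smooth muscle myosin, had log2 fold changes of 0.27 (standard error 0.23) and 0.12 (standard error 0.30).

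The 7 other kinases and phosphatase subunits of the light chains were all tested, and 0 had an unadjusted p under 0.05 in edgeR, with a median log2 fold change of -0.02. Ppp1cb, the catalytic subunit of myosin phosphatase, was at 329 ± 73.8 CPM in NLC-MI against 350 ± 49.6 CPM in TgGRK5-MI, with the SD over 5 libraries each. Its targeting subunit Ppp1r12b was at 237 ± 65.1 and 189 ± 37.0 CPM. Of the 11 partners and assembly factors of the thick filament 10 were tested, and their median was -0.23. Mybpc3, the cardiac myosin binding protein C, was at 4316 ± 1549 and 3708 ± 1121 CPM, and Myom1, an M-band protein, at 1792 ± 431 and 1605 ± 299 CPM. Mybphl, a myosin binding protein H-like protein of the atria and conduction system, was at 4.97 ± 2.58 CPM in NLC-MI against 2.36 ± 1.39 CPM in TgGRK5-MI (SD, n = 5 each, log2 fold change -1.05, standard error 0.44, edgeR unadjusted p = 0.0338, adjusted p = 1.00).

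All 22 regulators of heavy chain transcription were tested. All 22 had a negative log2 fold change, from -0.67 to -0.01 with a median of -0.19, where 7586 of all 15232 genes tested had a negative value, and 1 of them had an unadjusted p under 0.05. Under the other scalings 22 were negative with RLE size factors and with library size alone and 21 when scaled to the cardiomyocyte markers, and 18 were negative with limma-voom. The gene with the low p was Smarca4, which encodes Brg1, the remodeler that Mhrt is known to bind. It was at 112, 129, 138, 160 and 126 CPM in NLC-MI, and at 110, 103, 115, 114 and 98.6 CPM in TgGRK5-MI. The groups overlapped through NLC-MI replicate 1, and the log2 fold change came to -0.30 (standard error 0.13, edgeR unadjusted p = 0.0394, adjusted p = 1.00, exact permutation p = 0.0238). The most abundant regulators per kilobase were the transcription factors Gata4 (log2 fold change -0.28, standard error 0.26) and Srf (-0.20, standard error 0.14).

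Of the 5 genes of the fetal program, which return with Myh7 in the stressed heart, all were tested and 0 had an unadjusted p under 0.05 in edgeR. Their log2 fold changes ran from -0.64 to 0.59 with a median of 0.37, and 3 of the 5 were positive. Nppa, which encodes atrial natriuretic peptide, was at 2395 ± 1091 CPM in NLC-MI against 2330 ± 1113 CPM in TgGRK5-MI, and Ankrd1, a titin-associated stress protein, at 4846 ± 1692 and 6282 ± 2089 CPM (SD, n = 5 each). Among the cardiomyocyte markers, Ryr2, the calcium release channel, was at 1489 ± 538 CPM in NLC-MI against 783 ± 184 CPM in TgGRK5-MI (log2 fold change -0.93, standard error 0.30, edgeR unadjusted p = 0.00903, adjusted p = 0.968), and the other 5 markers had unadjusted p-values above 0.05.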

How the data were processed

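The analysis used cardiomyocyte RNA from day 4 after MI in 10 libraries, 5 NLC-MI and 5 TgGRK5-MI, grouped by their labels. The authors deposited whole-number counts per Ensembl gene without normalization. The submitters' processing notes name mm10, Bowtie2, RSEM 1.2.31 and DESeq2 without their roles. The strand setting, the annotation version and the read length are not given in the sources used here. RSEM, where it does the counting, divides reads that match several genes, which would bear on Myh6, Myh7 and Mhrt.

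Symbols, positions and exon lengths were taken from GENCODE M21, which held 51596 of the 51789 identifiers. Totals ran from 7968779 to 23381527 counts, and 3 counts were taken as the most that a count of 0 allows, which covers counting error only. In R 4.3.3 with edgeR 4.0.16, counts were normalized with TMM, filtered with filterByExpr and compared by the quasi-likelihood F test, with p-values adjusted over 15232 genes by the Benjamini-Hochberg method. The thresholds were an adjusted p of 0.10 and an unadjusted p of 0.05. The log2 CPM values used a prior count of 2. Ratios used counts per kilobase of merged exons and the exact permutation test. Alternatives were RLE factors, library size alone, DESeq2 1.42.0, limma-voom 3.58.1 with sample weights, other filters, other lengths, 1 added count, the replicate block, each library left out and, added after the data were seen, scaling to cardiomyocyte markers. Coding sequences were aligned with blastn 2.17.0.

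The members and lists were chosen with earlier results of these data known. Named list genes were those with an adjusted p under 0.10, up to 6 with an unadjusted p under 0.05, and the 2 most abundant per kilobase. Myl4, Ryr2, the skeletal muscle myosins and Gm29015 were named after their values were seen. The labels do not tie libraries of the groups to a shared litter or day, so no pairing was used. The result for 1 item is not reported here.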

Additional observations from a re-analysis of the deposited data

Results flagged for a closer look

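Within each group of 5 libraries, a library was singled out when its gap to the nearest other library was over 0.71 of the range of the group. The levels of the 7 genes, the 6 ratios and 10 marker sums gave 46 such comparisons and 9 hits. Independent, normally distributed values would give about 1 in 20. The values here were not transformed and share libraries and genes, so that rate is no measure of how many hits to expect.

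NLC-MI replicate 5 gave 5 of the hits. It was at 131 CPM for Myh7b (the other control libraries at 20.7 to 44.4), 12468 CPM for Myl2 (4106 to 5148), 7922 CPM for Myl3 (2699 to 3869) and 966 CPM for Mylk3 (391 to 506). Its skeletal muscle marker sum, which is mostly the muscle creatine kinase Ckm, was 2954 CPM against 1178 to 1545 CPM. The same library had the lowest fibroblast marker sum of all 10, at 4027 CPM. Its part in the fold changes is shown by the values without it in the report.

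NLC-MI replicate 4 had a Myh7 to Myh6 ratio of 0.0379, where the other control libraries were at 0.0110 to 0.0163. TgGRK5-MI replicate 5 had a Mhrt to Myh6 ratio of 0.0359, where the other TgGRK5-MI libraries were at 0.0203 to 0.0236. TgGRK5-MI replicate 2 had a smooth muscle marker sum of 1355 CPM against 620 to 827 CPM in its group. NLC-MI replicate 3 had a red cell marker sum of 205 CPM against 4.84 to 15.5 CPM, and it is the library with counts of skeletal heavy chains and the fewest counts in all.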

How the results depend on the processing

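For edgeR, 8 genes were higher and 4 lower at an adjusted p under 0.10 across the table. The numbers were 13 higher with library size alone, 42 higher and 27 lower with DESeq2, 41 higher and 9 lower with limma-voom, 13 higher with no filter on low counts, 4 higher with at least 10 counts in every library, and 2 to 7 higher and 1 to 3 lower with each library left out. The log2 fold change of Mhrt passed the threshold with library size alone (1.39), DESeq2 (1.35), limma-voom (1.83) and cardiomyocyte marker scaling (1.44), and with each library left out it was 1.19 to 1.56 and did not pass. The sign turned for Myh7b with limma-voom (0.31), with the replicate block (0.085) and without NLC-MI replicate 5 (0.50), for Myl3 with limma-voom (0.070) and without NLC-MI replicate 5 (0.17), and for Mylk3 likewise (0.061 and 0.12). With single libraries left out these 3 ran from -0.42 to 0.50, from -0.29 to 0.17 and from -0.29 to 0.12. For these changes the cause was not tested. Of the other myosin genes 3 had an unadjusted p under 0.05, 1 with cardiomyocyte marker scaling, and 0 to 5 with each library left out. The Myl2 to Myl3 difference ran from 0.45 to 0.65 and the Myh7b to Myh7 difference from -1.23 to -0.57 with each library left out. The correlation of Mhrt with Myh7 was 0.59 with library size alone and no longer under 0.05. Adding 1 count and summing Myh7 and Mhrt kept the call of each ratio they were tried on. The longest transcript as length could not change a call. It multiplies a ratio by the same factor in every library, so the difference and its p stay the same. The groups share replicate numbers, but same-numbered libraries had correlations from -0.341 to 0.662 and only 2 of 10 libraries correlated best with their own number. With the replicate block edgeR gave 5 genes higher and 3 lower and Mhrt at 1.43 (adjusted p = 0.141), and the ratio differences of 1.41 (Myh7 to Myh6), 1.86 (Mhrt to Myh6), 0.55 (Myl2 to Myl3) and -0.55 (Mylk3 to Myl2) had an exact sign-flip p of 0.0625, the smallest that 5 pairs allow. Depth limits the microRNA genes and the skeletal heavy chains, which were near 0 counts.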
